A study of Homo sapiens with 9 samples.

Results

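A set of 10 targets of hypoxia-inducible factor (HIF) that lie outside glycolysis was followed through 2 doses of the respiratory complex I inhibitor piericidin A. The set holds VEGFA, ADM, ANGPTL4, CA9, CA12, HILPDA, NDRG1, BHLHE40, KDM3A and ANKRD37, and all 10 were found by symbol among the 18859 genes of the deposited log2 table. At 50 nM the 10 genes stood at 28.9% to 64.3% of their DMSO means. At 25 nM they fell into unlike shapes: 6 stood at 50.3% to 68.3% of DMSO, while BHLHE40, ANKRD37, ADM and CA9 stood at 91.7% to 121%. The genes were chosen by their FPKM values in these same 9 libraries, for the shape of their response over the 3 groups, so their levels and changes are given as a description with no test.

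The cells were ACHN, a human renal cell carcinoma line grown as an adherent culture in MEM. One group received 0.1% DMSO, another 25 nM piericidin A and the third 50 nM piericidin A, with 3 libraries in each. The duration of treatment, and any DMSO in the wells with piericidin A, are not stated in the labels. The labels call the libraries of a group duplicates and do not say whether they came from separate cultures, so the errors and p-values measure the spread between these libraries, which may be technical.

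HIF is a dimer of an oxygen-regulated alpha subunit, HIF1A or EPAS1 (HIF-2 alpha), with ARNT. When oxygen is plentiful, EGLN enzymes hydroxylate the alpha subunit, and the VHL ubiquitin ligase then marks it for degradation. When oxygen is scarce the dimer accumulates and binds short elements with the core letters ACGTG or GCGTG. Its targets outside glycolysis include signals to blood vessels, enzymes that set pH outside the cell, lipid droplet proteins and regulators of transcription and chromatin. In clear cell renal carcinoma, loss of VHL is a well-known cause of constant HIF activity.

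The short stretches below show where those core letters lie in front of the genes. RefSeq windows (GRCh38.p14) from 250 bases before to 50 bases after the start site were used for 7 of the 10 genes, and windows of VEGFA, HILPDA and NDRG1 were not used here. Each stretch is printed 5′ to 3′ on the gene's strand with the matches to ACGTG or GCGTG, on either strand, in capitals (CACGT and CACGC are the same letters on the other strand).
ANGPTL4: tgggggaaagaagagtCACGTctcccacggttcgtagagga
CA12: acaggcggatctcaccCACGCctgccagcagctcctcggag
KDM3A: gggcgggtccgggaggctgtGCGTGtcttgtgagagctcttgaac
ADM: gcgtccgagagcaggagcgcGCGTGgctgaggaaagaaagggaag
CA9: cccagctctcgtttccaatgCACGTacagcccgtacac
ANKRD37: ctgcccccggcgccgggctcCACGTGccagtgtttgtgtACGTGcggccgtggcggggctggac
BHLHE40: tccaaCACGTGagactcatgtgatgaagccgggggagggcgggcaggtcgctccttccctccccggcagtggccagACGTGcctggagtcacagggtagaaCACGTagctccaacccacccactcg

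The stretches lie at chr19:8363905-8363945 (plus strand) for ANGPTL4, chr15:63382056-63382096 (minus strand) for CA12 and chr2:86441325-86441369 (plus strand) for KDM3A. Those of ADM, CA9, ANKRD37 and BHLHE40 lie at chr11:10304952-10304996, chr9:35673890-35673927, chr4:185396659-185396722 and chr3:4979187-4979312, all on the plus strand. A match to either core was present in each of the 8 windows used, where KDM3A has 2 overlapping windows that hold the same match, and in 48.4% of all 34943 windows. ACGTG was in 4 of the 8 windows and in 21.4% of all. Counted from the start site, the match began at -18 in CA9, at -26 in KDM3A (-116 from its other RefSeq start), at -101 in ADM and at -234 in both ANGPTL4 and CA12, and CA12 had a further match at 40, within the transcribed part. ANKRD37 and BHLHE40 held at least 3 matches each, as did 10.1% of all windows. Both carry the palindrome CACGTG, which reads as ACGTG on either strand and is found in 7.23% of windows. The genes already low at 25 nM (ANGPTL4, CA12, KDM3A) and those that were not (ADM, CA9, ANKRD37, BHLHE40) both included genes with each core. A match of letters is a description of these windows and not evidence of binding.

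**Figure D1:**
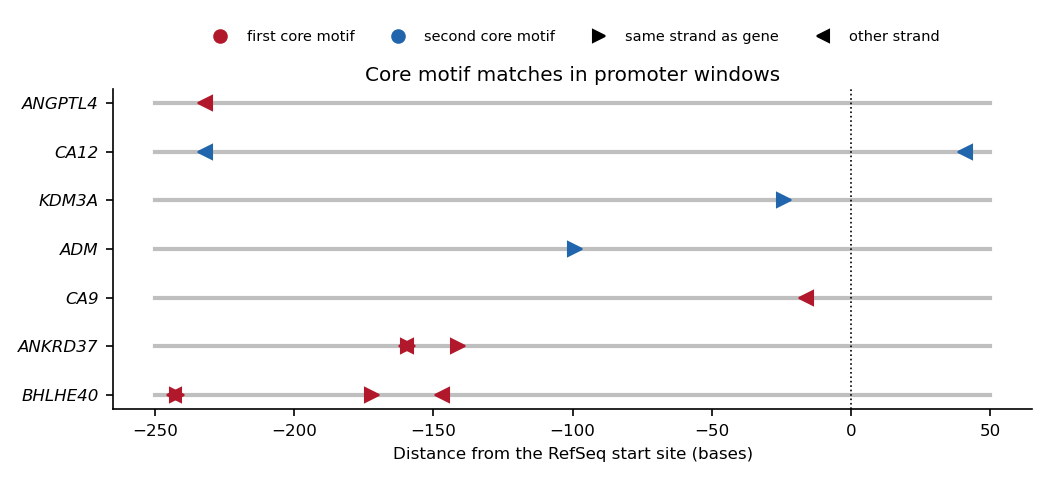
Positions of the core motif matches (horizontal axis, bases from the RefSeq start site) in the promoter windows of 7 genes (rows, grey bars from 250 bases before to 50 after the start). Red marks ACGTG and blue GCGTG, triangles point along or against the gene's strand, and crossed triangles mark the palindromes of ANKRD37 and BHLHE40. The CA9 match lies at -18 and the KDM3A match at -26 from the start drawn.

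Recovered fragments in the 18859 genes with a deposited length numbered 24365472 to 29245674 per library. Replicate 3 of the 25 nM group stood apart from its group, with a median absolute log2 difference of 0.171 from the other 2, against 0.0611 to 0.121 in the remaining 8. Its sum of FPKM was also the highest, 310119, where DMSO libraries had 249274 to 255396. Leaving it out moved the log2 fold changes of the 10 genes at 25 nM by -0.05 to 0.10. All 11 renal epithelial markers analysed here were at a mean of at least 1 FPKM (PAX8, KRT8 and KRT19 among them), with sums of 981 to 1006 FPKM in DMSO, 924 to 1026 at 25 nM and 812 to 855 at 50 nM. Of 10 leukocyte, endothelial and fibroblast markers, CD68, LYZ, PECAM1, VWF, CDH5, COL3A1 and DCN were below 0.5 FPKM in every library. The fibroblast and mural markers ACTA2 (4.34, 4.73 and 3.64 FPKM in the 3 groups), COL1A1 (1.72, 1.85 and 2.89) and PDGFRB (0.697, 0.403 and 0.372) were present. At 50 nM COL1A1 rose by the limma test (log2 fold change 0.71, adjusted p = 3.68e-04) and ACTA2 and PDGFRB fell (-0.25 and -0.76), and their part in the results was not tested. The sum of the 10 was 6.52 to 7.18 FPKM in DMSO and 6.80 to 7.72 at 50 nM.

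Changes are given on the log2(FPKM + 0.1) scale with the standard error (SE) of a limma fit over all 9 libraries, and levels as FPKM, which scales each gene by its length. In bulk RNA, fewer cells that express a gene and less RNA per cell cannot be told apart. The comparisons with DMSO share the DMSO libraries, and the 2 dose steps share the 25 nM libraries.

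The secreted factors responded in different shapes. VEGFA, the growth factor that drives the sprouting of blood vessels (ENSG00000112715, chromosome 6, 43770184-43786487), was measured at 24.5, 23.9 and 23.3 FPKM in the DMSO libraries. It was at 15.2, 14.5 and 14.2 FPKM at 25 nM, and at 10.1, 11.0 and 11.3 FPKM at 50 nM. The 3 groups did not overlap, and the larger part of the difference was present at the lower dose: the log2 fold change was -0.71 (SE 0.05) at 25 nM and -1.14 (SE 0.05) at 50 nM.

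ANGPTL4, a secreted inhibitor of lipoprotein lipase (ENSG00000167772, chromosome 19, 8363289-8374373), was at 268, 271 and 267 FPKM in DMSO. Its levels were 173, 182 and 196 FPKM at 25 nM, and 78.9, 94.0 and 89.2 FPKM at 50 nM. All libraries of a dose lay below all of the dose before it, and here the second step was the larger one, with log2 fold changes of -0.55 from DMSO to 25 nM and -1.07 from 25 to 50 nM (SE 0.07 each). In the authors' annotation ANGPTL4 lies within the span of ELAVL1 on the other strand, which was at 16.0, 18.4 and 17.8 FPKM in the 3 groups. Strand use in counting is not stated, so fragments of ELAVL1 may be included.

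ADM, which encodes the vasodilator peptide adrenomedullin (ENSG00000148926, chromosome 11, 10304680-10307397), did not follow these. It was at 127, 118 and 118 FPKM in DMSO, at 143, 143 and 138 FPKM at 25 nM, and at 49.4, 62.9 and 61.1 FPKM at 50 nM. The 25 nM libraries lay above all DMSO libraries and the 50 nM libraries below them, with log2 fold changes of 0.22 and -1.07 against DMSO (SE 0.08 each). The higher level at 25 nM depends on the scaling: when libraries were set to equal sums of FPKM, an alternative chosen after the data were seen, it was 0.02. The difference between 25 and 50 nM, -1.30 (SE 0.08), was -1.19 without replicate 1 of the 50 nM group.

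**Figure D2:**
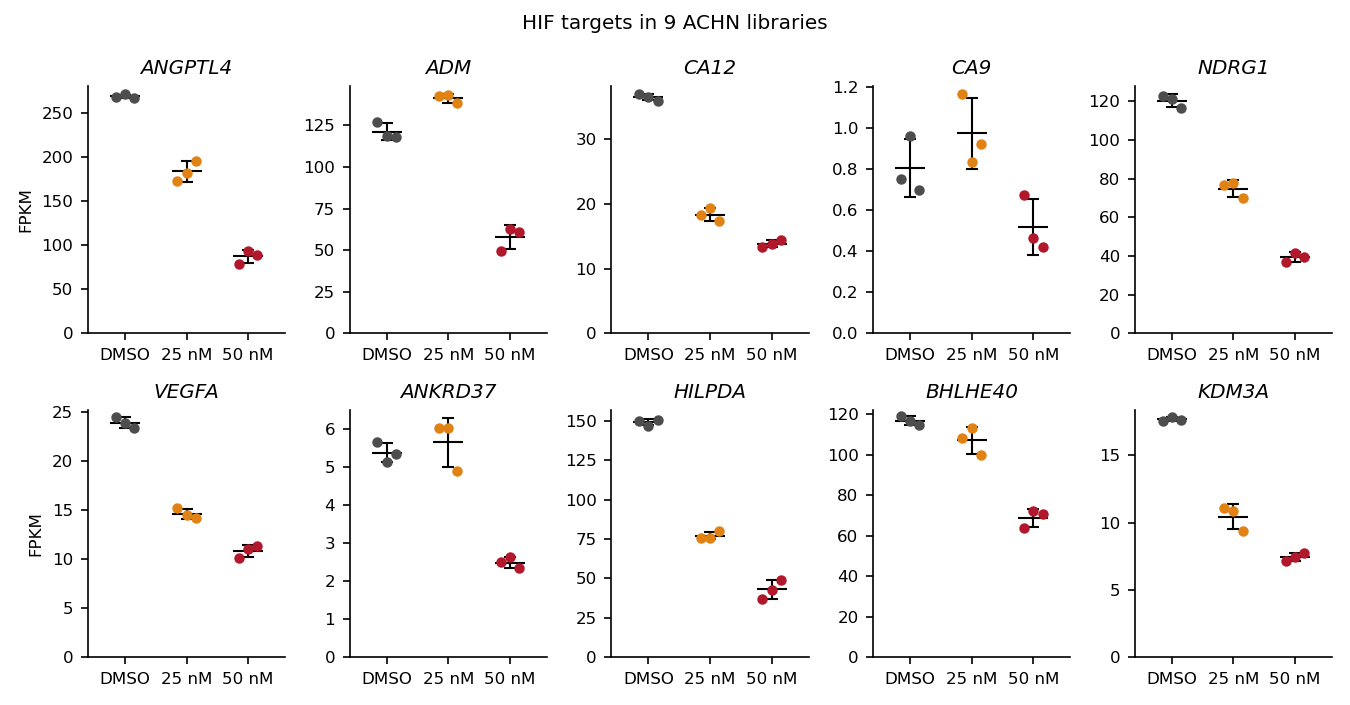
FPKM (vertical axes, each from 0) of the 10 genes in the 9 libraries. Points are single libraries, horizontal marks the group means and bars the SD (n = 3); VEGFA, ANGPTL4, CA12, NDRG1, HILPDA and KDM3A step down at each dose, whereas ADM is highest at 25 nM.

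The 2 carbonic anhydrases are membrane enzymes that hydrate carbon dioxide outside the cell and so set its pH there. CA12 (ENSG00000074410, chromosome 15, 63321378-63382161) was at 36.9, 36.5 and 35.9 FPKM in DMSO, 18.3, 19.3 and 17.3 FPKM at 25 nM, and 13.3, 13.8 and 14.4 FPKM at 50 nM. The first step was -0.99 (SE 0.05) and the second -0.40 (SE 0.05).

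CA9 (ENSG00000107159, chromosome 9, 35673856-35681159), often used as a marker of HIF activity in renal tumours, was barely present in this line. It was at 0.752, 0.962 and 0.698 FPKM in DMSO, 1.16, 0.834 and 0.918 FPKM at 25 nM, and 0.672, 0.462 and 0.418 FPKM at 50 nM. These values rest on 19 to 48 fragments per library, and 19 fragments carry a counting error of 22.9%. DMSO and 25 nM libraries overlapped, and the 50 nM libraries lay below both groups by a narrow margin. The log2 fold change at 50 nM was -0.56 (SE 0.21), and it was -0.25 with a pseudocount of 1, which weighs on genes this low. CA9 shares 2011 bases with ARHGEF39 on the other strand, a gene that went from 1.08 to 1.18 and 1.49 FPKM. Whether counting used the strand is not stated, so fragments of ARHGEF39 may be included.

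HILPDA, a small lipid droplet protein that inhibits the triglyceride lipase PNPLA2 (ENSG00000135245, chromosome 7, 128455849-128458418), stood at 150, 147 and 150 FPKM in DMSO. It was at 75.6, 75.7 and 79.8 FPKM at 25 nM and at 37.1, 42.7 and 49.3 FPKM at 50 nM. The level went to 51.7% of DMSO and then to 28.9%, with log2 fold changes of -0.95 and -1.80 against DMSO (SE 0.09 each). Its 50 nM libraries had a coefficient of variation of 14.2%. HILPDA shares 2482 bases with the processed transcript RP11-155G14.6 on the same strand, which was at 0.160, 0.122 and 0.115 FPKM in the 3 groups.

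NDRG1, a cytoplasmic protein induced by hypoxia, iron loss and differentiation (ENSG00000104419, chromosome 8, 133237171-133302022), was at 123, 121 and 117 FPKM in DMSO. It was at 76.8, 77.9 and 69.7 FPKM at 25 nM and at 36.7, 41.8 and 39.5 FPKM at 50 nM. The groups did not overlap, and the steps were -0.69 and -0.93 on the log2 scale (SE 0.06 each).

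The transcription and chromatin regulators split between the shapes. KDM3A, a histone demethylase that needs oxygen for its reaction (ENSG00000115548, chromosome 2, 86440647-86492716), was at 17.6, 17.8 and 17.6 FPKM in DMSO. It was at 11.1, 10.9 and 9.41 FPKM at 25 nM and at 7.15, 7.46 and 7.76 FPKM at 50 nM, with log2 fold changes of -0.76 and -1.23 against DMSO (SE 0.06 each). Across the 9 libraries its profile was nearest to that of VEGFA, with a Pearson correlation of 0.996, the highest of any pair of the 10 genes.

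BHLHE40, a helix-loop-helix repressor also known for its part in the circadian clock (ENSG00000134107, chromosome 3, 4979116-4985323), was at 119, 116 and 115 FPKM in DMSO. It was at 108, 113 and 99.7 FPKM at 25 nM and at 63.9, 72.1 and 70.6 FPKM at 50 nM. The 25 nM libraries lay just under the DMSO libraries, and the first step was -0.13 (SE 0.06), -0.08 without replicate 3 of that group and -0.33 with libraries set to equal sums of FPKM. The second step was -0.64 (SE 0.06).

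ANKRD37, a small ankyrin repeat protein (ENSG00000186352, chromosome 4, 185396021-185400628), was at 5.66, 5.15 and 5.34 FPKM in DMSO. It was at 6.02, 6.04 and 4.90 FPKM at 25 nM and at 2.50, 2.63 and 2.35 FPKM at 50 nM. DMSO and 25 nM libraries overlapped, and the 50 nM level was less than any library of the other groups. The log2 fold change was 0.06 (SE 0.09) at 25 nM and -1.08 (SE 0.09) at 50 nM. The first of these was 0.16 without replicate 3 of the 25 nM group and -0.13 with libraries set to equal sums of FPKM. ANKRD37 shares 1089 bases with UFSP2 on the other strand, which went from 6.43 to 4.88 and 4.31 FPKM. As strand use in counting is not stated, fragments of UFSP2 may be included in ANKRD37, and this was not tested.

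The share of the 50 nM change that was reached at 25 nM gives the shape in 1 number. On the log2 scale it was 71.1% for CA12, 61.9% for VEGFA, 61.2% for KDM3A and 52.9% for HILPDA. For NDRG1 it was 42.5% and for ANGPTL4 34.0%. BHLHE40 had 16.6%, and in ANKRD37 (-6.0%), ADM (-20.8%) and CA9 (-43.7%) the sign was opposite at 25 nM. The value of CA9 rests on few fragments. These shares depend on the scaling: with equal sums of FPKM they were 34.9% for BHLHE40, 10.5% for ANKRD37, -1.84% for ADM and -9.32% for CA9, and 41.8% to 75.9% for the other 6. CA12 and ANGPTL4 lay at the ends of those 6, with first steps of -0.99 and -0.55 and second steps of -0.40 and -1.07.

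**Figure D3:**
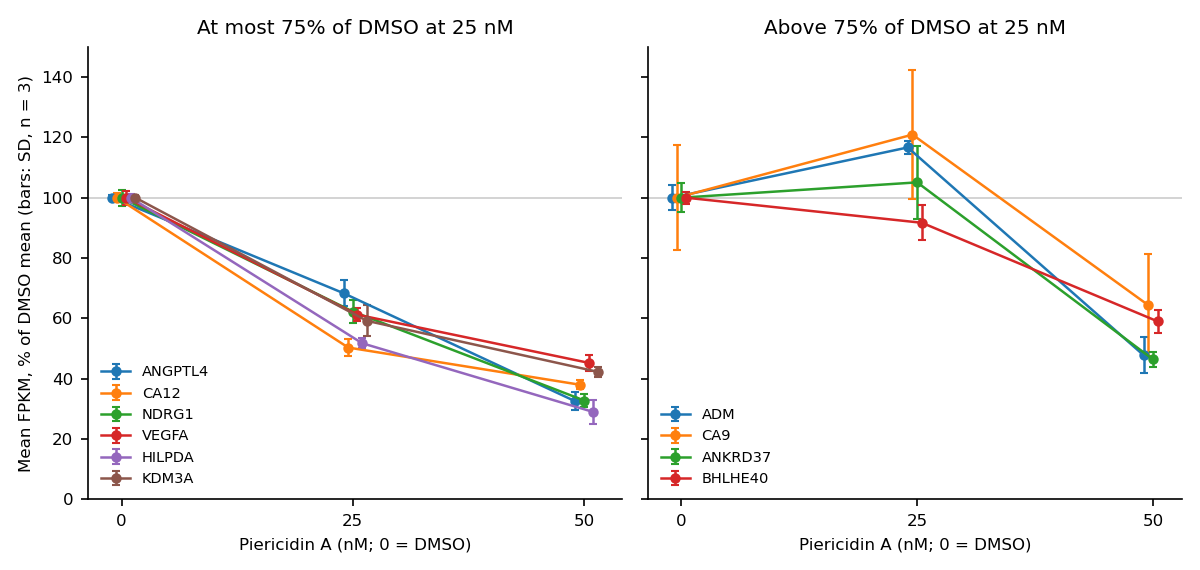
Mean FPKM as a percentage of the DMSO mean (vertical axis) against the dose of piericidin A (horizontal axis, nM), with bars for the SD of 3 libraries; points are shifted slightly sideways. The left panel holds the 6 genes at or under 75% of DMSO at 25 nM, and the right panel the 4 above it, a split made after the values were seen.

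Counted over libraries, 7 of the 10 genes had all 25 nM libraries below all DMSO libraries, 1 (ADM) had them above, and CA9 and ANKRD37 overlapped. Among all 15541 genes tested, 31.1% lay wholly below and 31.5% wholly above at 25 nM. At 50 nM all 10 lay wholly below DMSO (36.5% of all genes, with 33.9% wholly above), and all 10 lay wholly below the 25 nM libraries (24.4%, with 21.0% wholly above). Lower levels without overlap at both steps were seen in 7 of the 10 and in 8.18% of all genes. Lower levels without overlap at the second step alone were seen in the other 3 and in 16.2% of all genes. These contrasts chose the genes, so nothing is read from the counts. The median log2 fold change of the 10 was -0.62 at 25 nM and -1.19 at 50 nM, where the medians of all genes were 0.02 and 0.00.

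Within DMSO, the order of levels per deposited gene length was ANGPTL4 (269 ± 1.96 FPKM), HILPDA (149 ± 2.0), ADM (121 ± 5.10), NDRG1 (120 ± 3.25), BHLHE40 (117 ± 2.33), CA12 (36.4 ± 0.524), VEGFA (23.9 ± 0.566), KDM3A (17.7 ± 0.135), ANKRD37 (5.38 ± 0.254) and CA9 (0.804 ± 0.139; SD, n = 3). ADM, NDRG1 and BHLHE40 overlapped in their libraries and cannot be ordered, while the other neighbours did not overlap. ANGPTL4 was above 99.3% of the genes tested and CA9 above 19.0%. By 50 nM the order had changed, with ANGPTL4 (87.3 ± 7.70 FPKM) followed by BHLHE40 (68.9 ± 4.38) and ADM (57.8 ± 7.31), then HILPDA (43.0 ± 6.12) and NDRG1 (39.3 ± 2.54). The libraries of BHLHE40, from 63.9 FPKM, were above those of ADM, up to 62.9, by a narrow margin, and those of HILPDA and NDRG1 overlapped.

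The deposited gene length enters these levels. For all 10 genes it equals the union of the exons of every transcript in GENCODE release 29, which for VEGFA is 14431 bases where the longest coding transcript has 3535. Per length of the longest coding transcript, the DMSO level of VEGFA would be 97.5 in place of 23.9, that of NDRG1 314 in place of 120 and that of KDM3A 48.1 in place of 17.7, while CA9 would be at 0.830. The order of the genes thus depends on the length used, and their fold changes do not, apart from a small effect of the pseudocount.

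Other HIF targets outside glycolysis, 39 genes listed with earlier results of these data known, moved in the same direction for the most part. Of the 37 that passed the filter, 29 fell and 2 rose at 25 nM by the limma test, where 52.0% of all genes changed, 25.8% falling and 26.3% rising. At 50 nM 34 fell and 2 rose (31.5% and 29.2% of all genes, 60.7% together), with a median of -0.90 after -0.50 at 25 nM. Between 25 and 50 nM 29 fell and 1 rose (18.8% and 14.7% of all genes, 33.5% together). The share of all genes in that last comparison is less firm than the others: 5205 genes changed, and 3441 without replicate 1 of the 50 nM group. The 5205 were 2288 higher and 2917 lower. With scaling to fragment totals 4511 genes changed, 3153 of them higher and 1358 lower. With equal sums of FPKM the split turned to 2201 higher and 6254 lower at 25 nM and 3167 and 6710 at 50 nM, and the median of all genes moved from 0.02 to -0.17 at 25 nM and from 0.00 to -0.16 at 50 nM. Under that scaling 32 of the 37 other targets fell at 25 nM and 35 at 50 nM.

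PPP1R3C, which directs glycogen synthesis, fell furthest of the genes named from this list. It was at 65.0 ± 1.29 FPKM in DMSO, 28.9 ± 3.60 at 25 nM and 10.7 ± 1.45 at 50 nM, with a log2 fold change of -2.59 (SE 0.11, adjusted p = 5.65e-07). LOX, the collagen cross-linking enzyme, was at 88.2, 90.8 and 77.2 FPKM at 25 nM and at 39.8, 45.9 and 44.9 FPKM at 50 nM, with log2 steps of -0.73 and -0.97 (SE 0.07 each). INSIG2, which retains the sterol sensor SCAP in the endoplasmic reticulum, went from 33.6 ± 0.840 to 21.5 ± 0.715 and 13.2 ± 0.0825 FPKM, with an adjusted p of 1.14e-07 at 50 nM. ZNF395, a zinc finger factor, had most of its fall at the lower dose, like CA12, with steps of -1.04 and -0.25 (SE 0.05 each).

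The shapes of the 10 genes recurred among these other targets. By calls in the fit, 24 of 37 fell at 25 nM and fell again from 25 to 50 nM, as 5.42% of all genes did. PLOD1, SAP30, MAFF and TMEM45A, 4 of the 37, were not called at 25 nM and fell from 25 to 50 nM. The share of all genes with these calls is not given here. By libraries without overlap, 16.2% of all genes were lower at the second step alone, so nothing particular to the list is read from this count. DDIT4, an inhibitor of the kinase mTORC1 named here after its values were seen, had the shape of ADM. It was at 240 ± 4.43 FPKM in DMSO, 346 ± 10.2 at 25 nM and 196 ± 13.4 at 50 nM, with log2 fold changes of 0.53 (adjusted p = 7.83e-05) and -0.30 (adjusted p = 0.00124) against DMSO. WSB1, a subunit of a ubiquitin ligase, went the other way, from 24.9 ± 0.683 and 26.2 ± 2.14 to 44.2 ± 1.49 FPKM at 50 nM (log2 fold change 0.82, SE 0.06, adjusted p = 5.5e-06).

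**Figure D4:**
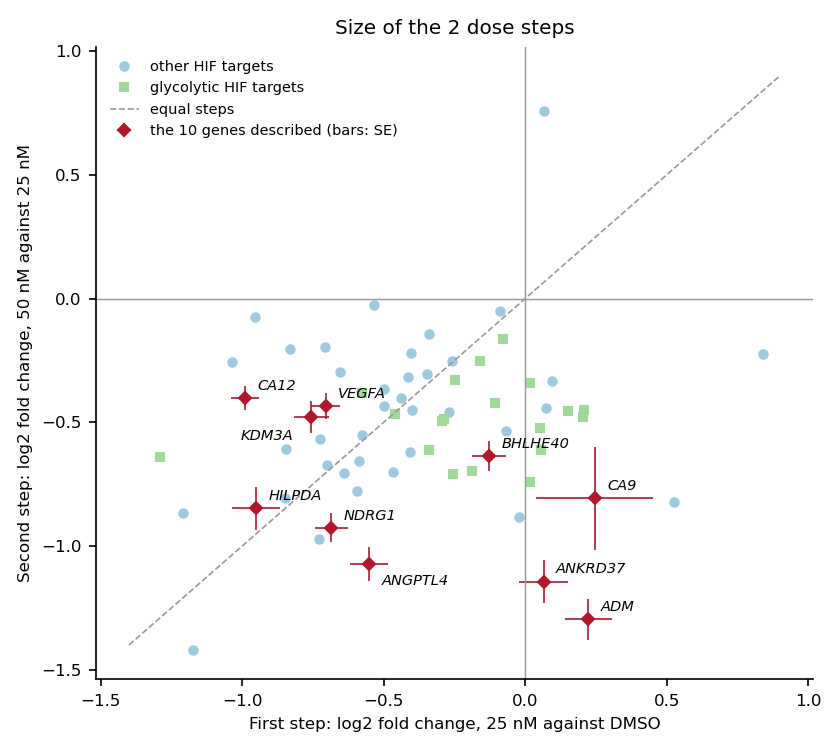
Log2 fold change of the first dose step (25 nM against DMSO, horizontal axis) and of the second (50 nM against 25 nM, vertical axis) for the 10 genes (red, bars for the SE), 37 other HIF targets (blue) and 19 glycolytic targets (green). Genes on the dashed line have equal steps; ADM, ANKRD37 and CA9 lie to the right of 0 on the first step, and the axes share the 25 nM libraries.

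The glycolytic targets of HIF were a list of 21 genes, also chosen with earlier results known. Each of those that passed the filter was lower at 50 nM. SLC16A3 and ALDOC did not pass it, with means of 0.419 and 0.0620 FPKM in DMSO and 0.572 and 0.118 at 50 nM. Of 19 tested, 10 fell and 2 rose at 25 nM, where 25.8% of all genes fell and 26.3% rose. All 19 fell both from DMSO to 50 nM (31.5% of all genes) and from 25 to 50 nM (18.8%), with medians of -0.16 at 25 nM and -0.58 at 50 nM. SLC2A1, the glucose transporter, was at 162 ± 6.06, 128 ± 2.54 and 83.7 ± 4.56 FPKM in the 3 groups. The kinases HK2 (67.8 ± 1.47, 27.9 ± 4.75 and 17.7 ± 1.06 FPKM), PFKFB4 (11.3 ± 0.273, 7.58 ± 0.0264 and 5.81 ± 0.423) and PGK1 (162 ± 4.20, 143 ± 0.415 and 88.0 ± 4.83) differed in shape. HK2 had its larger step first, like CA12, and PGK1 its larger step second, like ANGPTL4. The rises at 25 nM were in GPI and TPI1, and neither was called higher with libraries set to equal sums of FPKM. Under that scaling 15 of the 19 fell and 0 rose at 25 nM, where 6254 of all 15541 genes fell and 2201 rose.

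Transcripts of the oxygen-sensing machinery moved both ways. Of 13 tested, 3 rose and 9 fell at 25 nM (26.3% and 25.8% of all genes), and 4 rose and 8 fell at 50 nM (29.2% and 31.5%). HIF1A rose from 29.4 ± 0.331 FPKM to 42.2 ± 2.32 and 44.1 ± 0.492 (log2 fold change 0.58 at 50 nM, SE 0.04, adjusted p = 6.45e-06). EPAS1 fell from 88.6 ± 2.40 to 53.4 ± 4.60 and 39.5 ± 1.72 FPKM (-1.16, SE 0.06, adjusted p = 1.51e-06). EGLN1, the main HIF prolyl hydroxylase and itself a HIF target, fell from 40.9 ± 0.456 to 23.6 ± 1.16 and 21.2 ± 1.25 FPKM, and ARNT2 from 2.89 ± 0.0827 to 1.51 ± 0.0430 and 1.35 ± 0.0892. Between 25 and 50 nM, 2 rose and 4 fell, where 14.7% of all genes rose and 18.8% fell (33.5% together). The count of 6 was 3 without replicate 1 of the 25 nM group, and nothing particular to the list is read from it. These are transcript levels, and HIF protein was not measured.

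Relatives and partners of the 10 genes gave both directions: of 23 tested, 5 rose and 5 fell at 25 nM, 3 rose and 9 fell at 50 nM, and 11 were called at neither dose step. These counts stand beside 26.3% of all genes rising and 25.8% falling at 25 nM, and 29.2% and 31.5% at 50 nM, and nothing particular to the list is read from them. With equal sums of FPKM, 1 rose and 13 fell at 25 nM, where 2201 of all 15541 genes rose and 6254 fell. PLIN2, the lipid droplet coat protein, followed HILPDA, with 93.9 ± 0.883 FPKM in DMSO, 55.1 ± 0.505 at 25 nM and 31.3 ± 3.30 at 50 nM (log2 fold change -1.59 at 50 nM, SE 0.07, adjusted p = 4.85e-07). PNPLA2, the lipase that HILPDA inhibits, rose from 23.7 ± 0.564 to 28.8 ± 3.18 and 33.6 ± 1.87 FPKM (0.50, SE 0.07, adjusted p = 3.65e-04). BHLHE41, the paralog of BHLHE40, was at 17.9 ± 0.566, 8.91 ± 0.230 and 6.71 ± 0.596 FPKM, so that its first step of -1.0 (SE 0.06, adjusted p = 6.51e-06) stands beside the -0.13 of BHLHE40. KDM3B, the paralog of KDM3A, fell less than KDM3A in value, with log2 fold changes of -0.30 and -0.53 against DMSO (SE 0.06 each), a difference that was not tested. NRP2, a co-receptor of VEGF family ligands, fell at 50 nM (-0.44, SE 0.05, adjusted p = 9.61e-05).

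**Figure D5:**
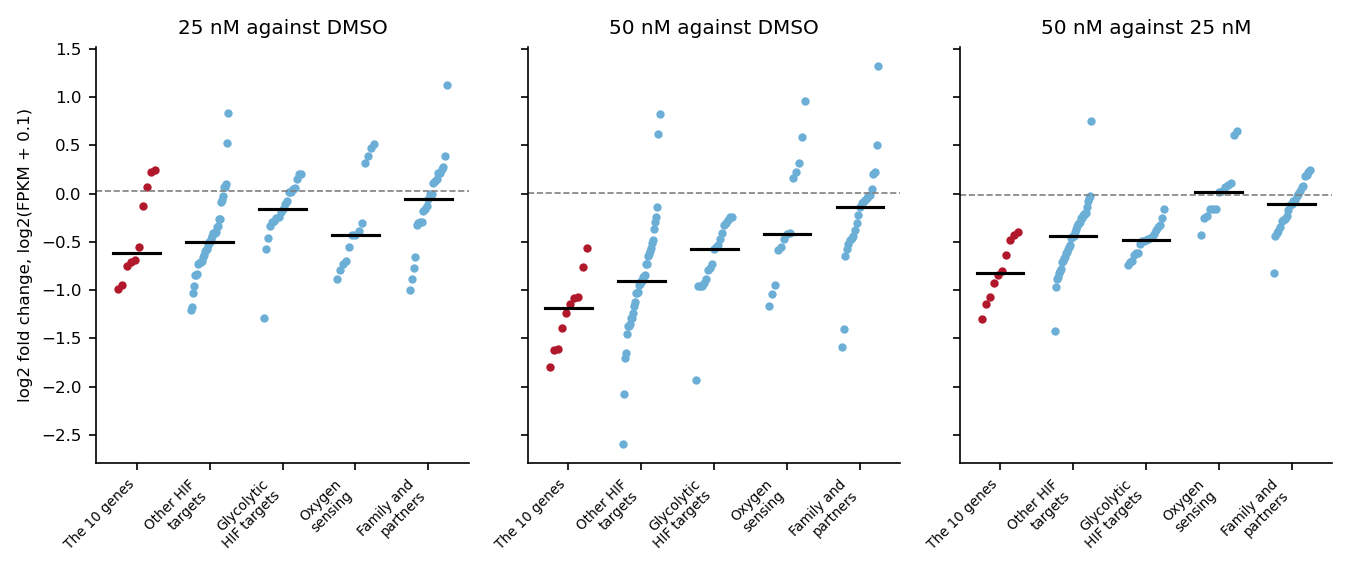
Log2 fold changes (vertical axis) of the 10 genes (red) and of 4 lists of related genes (blue) in the 3 comparisons (panels). Points are genes in order of value, black bars the list medians and the dashed line the median of all 15541 genes tested; at 50 nM against DMSO the bars stand at -1.19, -0.90, -0.58, -0.42 and -0.13.

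Among protein-coding genes outside the set, the profiles most like the mean standardized profile of the 10 genes over the 9 libraries were those of CHST11 (Pearson r = 0.998), PPP1R18 (0.997), TRAM1 (0.996), TGM2 (0.995) and P4HA1 (0.994). P4HA1, a collagen prolyl hydroxylase on the list of other HIF targets, went from 130 to 98.3 and 64.0 FPKM, and CHST11, a chondroitin sulfotransferase, from 13.9 to 12.4 and 9.66 FPKM. The likeness covers shape only, since CHST11 changed by -0.52 on the log2 scale at 50 nM where ANGPTL4 changed by -1.62. Each of the 10 genes was also set against the mean of the other 9. NDRG1 (r = 0.990) and ANGPTL4 (0.988) lay closest to it, ADM (0.852) and CA12 (0.877) further off on opposite sides of the even shape, and CA9 (0.635) furthest. These correlations describe 9 libraries in 3 dose groups.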

How the data were processed

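RNA from 9 ACHN libraries was sequenced on an Illumina HiSeq instrument, 3 libraries in each of 3 groups. The authors deposited FPKM (fragments scaled to gene length and library depth) for 30673 genes, and a log2 table of the same FPKM values without a pseudocount, restricted to the 18859 genes detected in each of the 9 libraries. The values of both tables agree to within 0.005 on the log2 scale. The build was hg38 per the submitters' processing notes, and the aligner and counting program are not given in the sources used here. FPKM times the deposited gene length gave whole multiples of 1 step for 100% of genes within a tolerance of 0.01, which recovered the fragments used for depth and for the voom alternative.

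The design had assumed FPKM. limma 3.58.1 (lmFit, then eBayes with trend and robust) in R 4.3.3 was fitted to log2(FPKM + 0.1) of the 9 libraries with no covariate besides group, over the 15541 genes that reached 0.5 FPKM in 3 or more libraries. Benjamini-Hochberg adjustment ran over all 15541 genes, and calls were made below an adjusted p of 0.05. The fit was tested on simulated data. Alternatives were another pseudocount, other filters, other scalings, voom, fits of only the groups compared, a replicate block and leaving out each library.

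The 10 genes and the gene lists were chosen with earlier results of these data known. From each list the text names up to 4 genes with the smallest p in either comparison with DMSO, and 1 of the other direction where those go one way. Other genes are named for what their sentences state, such as a dose shape, a rise, a missed filter, an overlap, a likeness or a cell type. Replicate numbers were not treated as pairs. Deviations from group means of same-numbered libraries had correlations of -0.047 to 0.079 across genes, and those of differently numbered libraries -0.110 to 0.060. With 3 libraries in a group, these values cannot exclude a shared culture or batch. Promoter windows came from RefSeq (GRCh38.p14). Figures and tables were made with Python 3.11.15, pandas 2.3.3 and matplotlib 3.10.9. Some genes of the lists are not reported here by name.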

Additional observations from a re-analysis of the deposited data

How the results depend on the processing

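Across the alternatives run, the 25 nM value of ANKRD37 with equal sums of FPKM (-0.13) was the only log2 fold change of the 10 genes with another sign. Leave-one-out fits moved these values by -0.17 to 0.12, and voom on recovered fragments by -0.11 to 0.03. Their sizes also moved with other settings. Equal sums of FPKM moved them by -0.20 to -0.18 at 25 nM and by -0.17 to -0.15 at 50 nM. Scaling by fragment totals moved them by -0.03 at 25 nM and by 0.06 to 0.07 at 50 nM. A pseudocount of 1 moved the values between 25 and 50 nM by 0.007 to 0.43, most in CA9. CA9 could not be fitted with a filter of 1 FPKM, and its 50 nM change missed the size of 0.3 needed for a dose share with a pseudocount of 1. The number of genes changed between 25 and 50 nM ranged from 3441 to 5829 with 1 library left out at a time, and that of oxygen-sensing genes from 3 to 6. Of the 23 family and partner genes tested, 8 changed in that comparison, where 33.5% of all genes did in the main fit. The count was 5 both when scaled by fragment totals and when scaled to equal sums of FPKM, and the cause was not tested. With the replicate number as a block, 7640, 9107 and 4587 genes changed at 25 nM, at 50 nM and between the doses, against 8086, 9441 and 5205, and no count of genes or list members moved by more than 1.5 times. Depth limits CA9 and, less so, ANKRD37, whose lowest library held 165 fragments (a counting error of 7.78%).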
